A study of Mus musculus with 20 samples.

Results

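The transcripts described here come from 10 imprinted genes, Nnat, Dlk1, Meg3, Gnas, Grb10, Rasgrf1, Peg3, Plagl1, Cdkn1c and Igf2, measured by poly-A RNA sequencing in sorted mouse pancreatic beta cells. The genes were taken by symbol from the 26305 usable entries of the deposited table, and all 10 were present. Nnat was chosen by its measured level, which earlier results of the same libraries showed to be low in HKO. Its differences between genotypes with and without Hnf4a are therefore given as a description with no test. The 9 others are known imprinted genes set beside it, and they too were chosen with earlier results of these data known.

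The groups were DKO (Foxo1 and Hnf4a both deleted in beta cells), HKO (Hnf4a deleted), IKO (Foxo1 deleted) and WT, with 5 libraries each and 20 in all. The mice were males fed chow, aged 6 to 8 months. Deletion used floxed alleles and the RIP-Cre transgene, a Cre recombinase driven by the rat insulin promoter, and cells of every genotype were sorted on a tomato reporter that Cre switches on. Foxo1 and Hnf4a are transcription factors of metabolic genes, and the comparisons ask what the loss of each and of both does.

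Imprinted genes are expressed mainly or only from the allele inherited from 1 parent, because DNA methylation set in the egg or the sperm differs between the copies. Many of them encode proteins of growth control, and several act on insulin secretion, islet growth or islet development. Nnat, Dlk1, Rasgrf1, Peg3, Plagl1 and Igf2 are classed as expressed from the paternal allele, and Meg3 and Cdkn1c from the maternal allele. Grb10 and Gnas switch the expressed allele, or lose imprinting, according to tissue and promoter. These libraries give the sum of both alleles, so a change of imprinting was not measured.

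Depth ran from 22.6 to 34.7 M reads per library (median 27.8 M), and the insulin genes Ins1 and Ins2 took 14.9 to 22.3% of them. Foxo1 transcript measured 1.09 to 1.61 FPKM in DKO and 0.462 to 1.51 FPKM in IKO, against 5.33 to 8.61 FPKM in WT. Hnf4a transcript measured 3.52 to 4.41 FPKM in DKO and 3.40 to 4.28 FPKM in HKO, against 4.32 to 6.52 FPKM in WT (HKO against WT log2 −0.48, limma adjusted p = 0.0630). These levels sum the whole gene and do not show the floxed part alone. In all 4 genotypes the read counts of replicates 1 and 2 were near each other, and so were those of replicates 4 and 5. A chi-square per degree of freedom was 1.25 to 2.38 in those 8 pairs and 5.56 to 14.3 in the 32 other pairs within groups. No label says that libraries came from separate animals, so p-values reflect the variation among these libraries alone, and that variation may be technical. Below, values are also given by library set, meaning replicates 1 and 2, replicate 3, and replicates 4 and 5. Differences by set compare same-numbered libraries, which no label ties together, and for replicate 3 they rest on 1 library of each genotype. The summed level of 10 beta-cell marker genes was 284609 to 377029 FPKM in DKO, 269242 to 388425 in HKO, 302356 to 351410 in IKO and 284542 to 388033 in WT. That of 19 acinar (exocrine) marker genes was 174 to 1536 FPKM in DKO, 417 to 1639 in HKO, 25.04 to 232 in IKO and 38.2 to 271 in WT, with Prss1 and Amy2a5 at 0 in all libraries. Every HKO library lay above every WT library in it. Its highest values were in HKO replicates 4 and 5 and DKO replicate 3. The alpha-cell list (8 genes) summed to 631 to 1489 FPKM in DKO, 447 to 935 in HKO, 438 to 634 in IKO and 212 to 1007 in WT, and the duct list (7 genes) to 1069 to 1796, 921 to 1377, 660 to 1426 and 745 to 1291 FPKM in the same order.

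The promoter windows of the 3 genes whose libraries did not overlap between a knockout group and WT are shown with their CG pairs, the sites of DNA methylation. Whether these windows hold the methylated stretch that sets each imprint was not examined. Each runs 5′ to 3′ on the gene's own strand, from 250 bases before to 50 bases after the RefSeq start in GRCm38 (mm10), with CG pairs in capitals. The Nnat window is chr2:157559828-157560127 on the plus strand, that of Rasgrf1 chr9:89909525-89909824 on the plus strand and that of Plagl1 chr10:13090582-13090881 on the plus strand.
Nnat: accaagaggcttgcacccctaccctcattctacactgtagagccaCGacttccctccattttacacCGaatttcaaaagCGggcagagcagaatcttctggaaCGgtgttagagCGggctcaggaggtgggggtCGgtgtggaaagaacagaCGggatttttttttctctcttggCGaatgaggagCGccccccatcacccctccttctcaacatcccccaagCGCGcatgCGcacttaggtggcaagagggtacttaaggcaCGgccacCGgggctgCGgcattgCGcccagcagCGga
Rasgrf1: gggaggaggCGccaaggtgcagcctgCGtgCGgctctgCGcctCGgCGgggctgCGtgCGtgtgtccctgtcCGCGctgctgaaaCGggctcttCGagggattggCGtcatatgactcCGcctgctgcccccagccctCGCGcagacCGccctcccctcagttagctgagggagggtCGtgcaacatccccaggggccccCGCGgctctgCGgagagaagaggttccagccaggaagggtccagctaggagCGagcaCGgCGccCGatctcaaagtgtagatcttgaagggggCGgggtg
Plagl1: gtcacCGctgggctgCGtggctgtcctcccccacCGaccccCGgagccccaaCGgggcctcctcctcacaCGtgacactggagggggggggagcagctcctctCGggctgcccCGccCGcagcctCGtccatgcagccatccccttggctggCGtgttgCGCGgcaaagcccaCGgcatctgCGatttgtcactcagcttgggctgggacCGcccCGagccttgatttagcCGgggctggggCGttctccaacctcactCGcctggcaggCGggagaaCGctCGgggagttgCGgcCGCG
The Nnat window held 17 CG pairs, and those of Rasgrf1 and Plagl1 26 each, against a median of 7 (quartiles 3 and 20) over 32851 promoter windows of the same length. Of all windows, 68.6% held fewer than Nnat and 83.1% fewer than Rasgrf1 or Plagl1. The windows of the other genes held 1 (a start of Meg3) to 45 (a start of Grb10). None of the 3 windows held the HNF4 motif CAAAGTCCA, its repeat form CAAAGGTCA or the FoxO motif TGTTTAC on either strand. These letters occur in 0.475%, 0.478% and 3.65% of all windows. Among the windows of the other genes, only that of Dlk1 held any of the 3, with 2 copies of the FoxO motif. The RefSeq table gave windows for 9 of the 10 genes, and Cdkn1c was not among them.

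Nnat encodes neuronatin, a small membrane protein of the endoplasmic reticulum that helps the signal peptidase complex process preproinsulin in mouse beta cells. The gene lies at chr2:157560078-157562525 on the plus strand, and overlaps Blcap on the opposite strand. In DKO libraries it measured 1.78, 1.63, 1.78, 1.73 and 2.32 FPKM (replicates 1 to 5), and in HKO libraries 1.83, 1.80, 0.775, 2.52 and 1.70 FPKM. In IKO libraries it measured 3.94, 4.82, 3.68, 4.48 and 4.90 FPKM, and in WT libraries 3.43, 3.37, 5.11, 4.80 and 5.24 FPKM. Every library without Hnf4a lay below every library with it, and the lowest of all was HKO replicate 3. Levels from low to high were HKO (1.73 ± 0.62 FPKM, SD, n = 5), DKO (1.85 ± 0.27), IKO (4.36 ± 0.54) and WT (4.39 ± 0.92). DKO and HKO overlapped, as did IKO and WT, and the gap lay between 2.52 FPKM, the highest HKO library, and 3.37 FPKM, the lowest WT library.

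**Figure D1:**
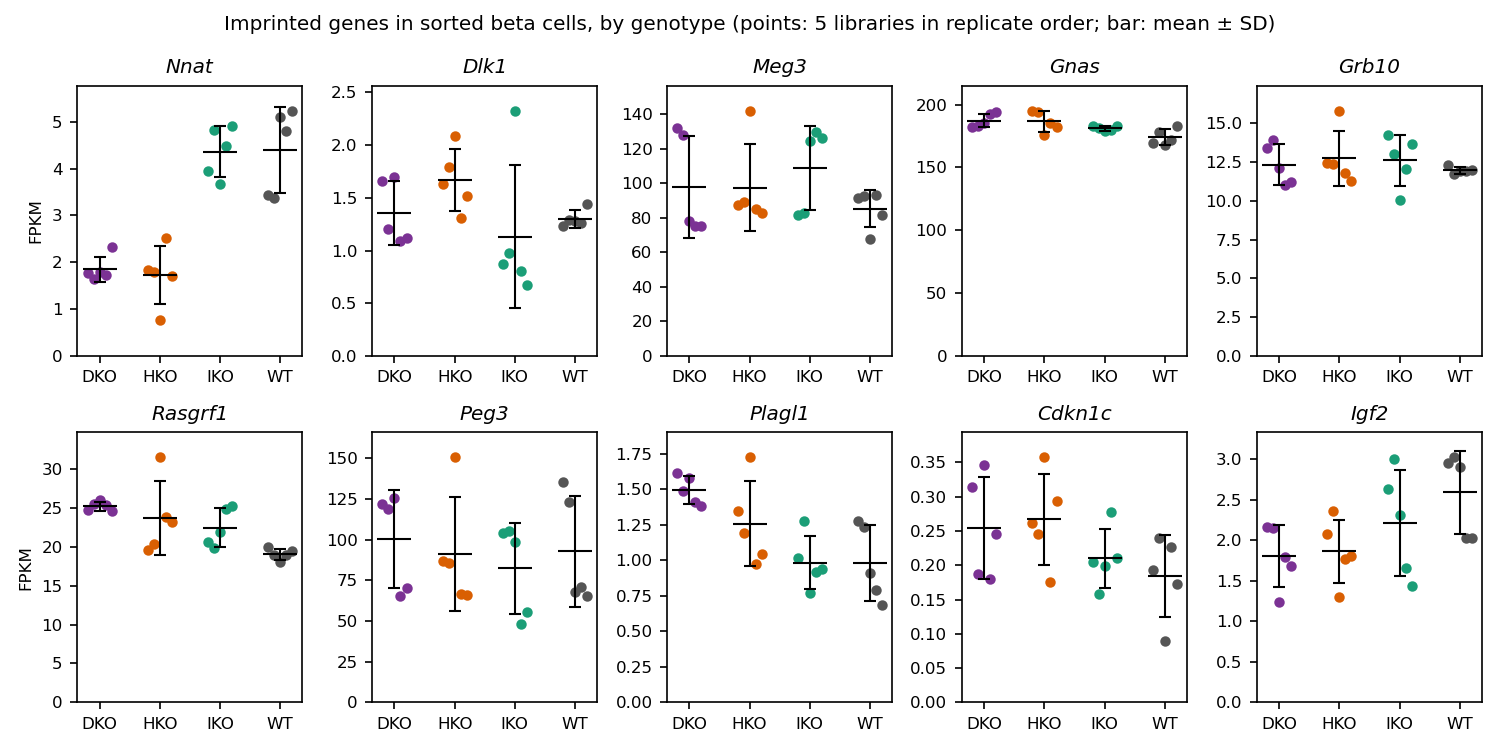
Level of each of the 10 imprinted genes in FPKM (vertical axes, linear from 0) in the 5 libraries of DKO, HKO, IKO and WT, with points in replicate order and bars for the mean ± SD. Nnat is the gene whose 10 libraries without Hnf4a (0.775 to 2.52 FPKM) all lie below the 10 with it (3.37 to 5.24 FPKM).

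Nnat stood at 42.1% of WT in DKO (log2 difference −1.04, SE 0.17, on the log2(FPKM + 0.5) scale used throughout). It stood at 39.3% of WT in HKO (log2 −1.17, SE 0.17) and at 42.4% of IKO in DKO (log2 −1.05, SE 0.17). These 3 values belong to the contrast that chose the gene and carry no test. In the same comparisons 3.37%, 2.48% and 2.77% of the 12455 genes tested had groups that did not overlap. The HKO to WT difference was −0.75, −2.14 and −1.10 in the 3 library sets, that of DKO to WT −0.82, −1.30 and −1.14, and that of DKO to IKO −1.14, −0.87 and −1.05. It was −0.98 between HKO and WT without HKO replicate 3, and −1.34 without the 3 libraries richest in acinar transcripts. The HKO libraries kept in the latter fit still summed to 417 to 463 FPKM of acinar markers, against 38.2 to 271 in WT. They include replicate 3, the lowest in Nnat. The part of acinar transcripts in the result was not tested.

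The effect of Foxo1 deletion on Nnat was tested, although the choice of the gene drew on its HKO level. In IKO against WT the difference was 0.01 (95% interval −0.35 to 0.37, limma adjusted p = 1.0), and in DKO against HKO it was 0.12 (−0.24 to 0.49, adjusted p = 0.990). The interaction, which asks whether Foxo1 loss acts differently with Hnf4a absent, was 0.12 (−0.39 to 0.63, adjusted p = 0.989). The intervals are wide, and equal levels are not shown by them. DKO against HKO and the interaction reuse the HKO values by which Nnat was chosen, and choosing a low HKO level can raise both. Their p-values are therefore not free of that choice. In the 3 library sets DKO against HKO gave −0.07, 0.84 and −0.04, and the interaction −0.39, 1.26 and 0.05.

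Nnat rests on few reads. The libraries held 49 to 74 Nnat reads in DKO, 23 to 81 in HKO, 108 to 172 in IKO and 114 to 215 in WT, where reads are recovered from the FPKM values. For HKO replicate 3, 23 reads gave 0.775 FPKM with an exact 95% Poisson interval of 0.491 to 1.16 FPKM. At the other end, the interval was 2.003 to 3.14 FPKM in HKO replicate 4 and 1.79 to 2.95 FPKM in DKO replicate 5, and both overlapped that of WT replicate 2 (2.78 to 4.05 FPKM). Such intervals cover counting error only.

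Genes around Nnat were read beside it. Blcap, itself imprinted in brain, measured 28.9 ± 1.11 FPKM in DKO, 28.6 ± 2.01 in HKO, 29.5 ± 1.42 in IKO and 28.8 ± 0.666 in WT (SD, n = 5 each). Nnat lies 5.94 Mb from Hnf4a on the same chromosome, and Gnas 10.7 Mb beyond Hnf4a. Of the 27 tested genes between Nnat and Hnf4a, 0 passed in HKO against WT, where 98 of 12455 genes passed (0.787%). The 5 subunits of signal peptidase, the complex with which neuronatin works, were all tested and 0 passed in any of the 6 comparisons. The most abundant of them, Sec11c, measured 167 ± 21.03 FPKM in DKO, 187 ± 13.1 in HKO, 184 ± 4.68 in IKO and 184 ± 20.8 in WT.

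The genes whose level most resembled that of Nnat over the 20 libraries were sought among the 11489 genes that averaged 1 FPKM or more. They were Ahcy (Pearson r = 0.897), Slc16a6 (0.894), Hpgds (0.886), Nr1h4 (0.881) and Serpina10 (0.869). All 5 were lower in both Hnf4a-deleted groups on average, and the r values include that difference. Ahcy, the hydrolase of S-adenosylhomocysteine in the methylation cycle, measured 2.77 ± 0.34 FPKM in DKO, 2.81 ± 0.41 in HKO, 4.86 ± 0.58 in IKO and 5.43 ± 0.53 in WT. Nr1h4, the bile acid receptor FXR, measured 2.79 ± 0.46, 2.77 ± 0.51, 4.40 ± 0.39 and 4.59 ± 0.50 FPKM in the same order. After the group means were taken out, the nearest genes were different ones, Serpina3h (r = 0.860), Dynlrb1 (0.859), Bag1 (0.857), Glo1 (0.826) and D430020J02Rik (0.824). Libraries share sets and depth, so these r values describe likeness only.

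Rasgrf1, which lies at chr9:89909508-90026979, encodes a calcium-responsive exchange factor that activates Ras, and mice without it have a reduced beta-cell mass. It measured 24.7, 25.4, 26.0, 25.3 and 24.6 FPKM in DKO libraries and 19.97, 18.9, 18.0, 18.9 and 19.4 FPKM in WT libraries. All DKO libraries lay above all WT libraries, in a comparison where 3.37% of the genes tested had groups that did not overlap. The level was 132.5% of WT (log2 0.40, SE 0.10, 95% interval 0.20 to 0.60, limma adjusted p = 0.0429), and the log2 difference was 0.36, 0.52 and 0.37 in the 3 library sets. Rasgrf1 rose in DKO by this test, as the 1 gene of the 8 tested besides Nnat that passed in DKO against WT, where 150 of 12455 genes passed (1.20%). The call was lost when any 1 WT library, any 1 DKO library, IKO replicate 3 or HKO replicates 4 or 5 were left out (adjusted p 0.0516 to 0.105), with the difference between 0.38 and 0.41 in every case. With close library pairs averaged or treated as correlated, the adjusted p was 0.905 and 0.242. It was 0.117, with a difference of 0.39, without the 3 libraries richest in acinar transcripts. Rasgrf1 passed in 8 of 12 other settings of the fit.

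The means of both single deletions lay between those of DKO and WT. Rasgrf1 measured 19.5, 20.4, 31.5, 23.8 and 23.2 FPKM in HKO (log2 0.29, SE 0.10, limma adjusted p = 0.268). In IKO it measured 20.6, 19.9, 21.9, 24.8 and 25.2 FPKM (log2 0.23, SE 0.10, adjusted p = 1.0). Both groups overlapped WT, HKO replicate 3 stood far above its group, and replicates 1 and 2 of both groups lay near WT. The interaction was −0.12 (95% interval −0.40 to 0.16, adjusted p = 0.989). Rasgrf2, a related exchange factor, measured 6.63 ± 1.30 FPKM in DKO against 9.60 ± 0.90 in IKO (log2 −0.52, SE 0.12, adjusted p = 0.0480), and 6.57 ± 1.45 in HKO against 8.40 ± 0.62 in WT (log2 −0.35, adjusted p = 0.343). The call in DKO against IKO was lost with close pairs averaged (adjusted p = 0.890) or correlated (0.440) and when any 1 of 16 libraries was left out. Of 12 other settings of the fit, Rasgrf2 passed in 6. Of the 17 tested genes of Ras exchange and Erk signalling, Rasgrf2 in DKO against IKO was the only call in the 6 comparisons.

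**Figure D2:**
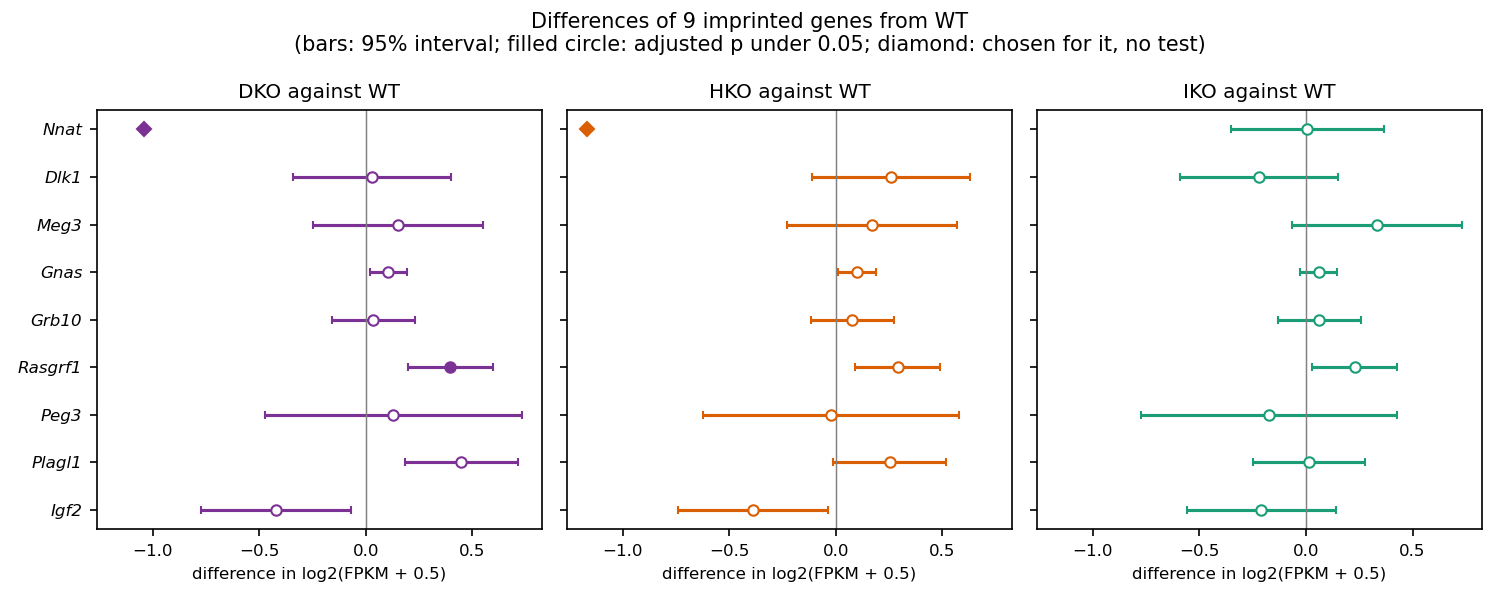
Difference of DKO, HKO and IKO from WT on the log2(FPKM + 0.5) scale (horizontal axes) for the 9 imprinted genes that passed the level filter, with 95% intervals of limma. Rasgrf1 in DKO (0.40) is the filled circle, and the diamonds of Nnat at −1.04 and −1.17 carry no test because they chose the gene.

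Plagl1, which lies at chr10:13090832-13131694, encodes a zinc-finger transcription factor tied to transient neonatal diabetes when overexpressed in humans. It measured 1.61, 1.48, 1.58, 1.41 and 1.38 FPKM in DKO and 1.35, 1.19, 1.73, 0.977 and 1.04 FPKM in HKO. In IKO it measured 1.02, 1.27, 0.768, 0.917 and 0.940 FPKM, and in WT 1.28, 1.23, 0.909, 0.791 and 0.682 FPKM. All DKO libraries lay above all WT and all IKO libraries, while HKO overlapped every other group. Over all genes tested, 3.37% did not overlap between DKO and WT and 2.77% between DKO and IKO. DKO stood at 152.6% of WT (log2 0.45, SE 0.13, limma adjusted p = 0.115) and at 152.0% of IKO (log2 0.43, SE 0.13, adjusted p = 0.129), so neither difference passed. Scaling the libraries to equal medians took both past the threshold (adjusted p = 0.0356 and 0.0404). Of 12 other settings of the fit, DKO against WT passed in 2 (adjusted p up to 0.9999). DKO against IKO passed in 1 of the 12 (up to 0.9997). Both passed in 0 of the 20 fits that left out 1 library (adjusted p 0.0640 to 0.324 and 0.0758 to 0.255). The DKO to WT difference was 0.22 in replicates 1 and 2, 0.56 in replicate 3 and 0.62 in replicates 4 and 5. Libraries held 96 to 284 Plagl1 reads.

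Groups that did not overlap were thus found for Nnat, Rasgrf1 and Plagl1 in DKO against WT (3.37% of all genes). They were found for Nnat and Plagl1 in DKO against IKO (2.77%) and for Nnat in HKO against WT (2.48%). Nnat was chosen for its low HKO level. No gene of the set was without overlap in IKO against WT (0.763% of all genes) or DKO against HKO (0.988%). Passing genes were 3 in IKO against WT (0.0241%), 1 in DKO against HKO (0.00803%), 138 in DKO against IKO (1.11%) and 1 in the interaction (0.00803%). None of the 8 genes tested besides Nnat passed in those 4 comparisons or in HKO against WT, and in DKO against WT 1 did. An unadjusted limma p under 0.05 was held by 1 of them in IKO against WT (4.30% of all genes), 3 in HKO against WT (7.07%) and 4 in DKO against WT (8.01%). It was held by 0 in DKO against HKO (3.69%), 1 in DKO against IKO (10.2%) and 0 in the interaction (4.42%). Their median difference was 0.12 in DKO against WT, 0.13 in HKO against WT and 0.04 in IKO against WT, beside 0.02, 0.00 and 0.01 over all genes tested.

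Igf2, the gene of insulin-like growth factor II, lies at chr7:142650768-142666816, 11.8 kb from Ins2. It measured 2.16, 2.15, 1.24, 1.79 and 1.68 FPKM in DKO and 2.07, 2.36, 1.30, 1.77 and 1.80 FPKM in HKO. In IKO it measured 2.63, 3.001, 2.31, 1.66 and 1.44 FPKM, and in WT 2.96, 3.03, 2.91, 2.03 and 2.03 FPKM. DKO and HKO lay lower on average but overlapped WT, with log2 differences of −0.42 (SE 0.17, limma adjusted p = 0.424) and −0.39 (SE 0.17, adjusted p = 0.585). In each library set both were below WT, with differences of −0.39, −0.97 and −0.18 in DKO and of −0.36, −0.92 and −0.14 in HKO. A transcript annotated as Gm49394 overlaps Igf2 on the same strand, so reads could be shared between them.

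Around Igf2, 12 genes of Igf and insulin receptor signalling were tested. Igfbp7, a secreted binding protein of insulin-like growth factors, measured 21.2 ± 3.54 FPKM in DKO and 20.6 ± 3.46 in HKO, against 31.6 ± 1.135 in WT. It fell in both by limma (log2 −0.58, SE 0.13, adjusted p = 0.0320 and log2 −0.62, SE 0.13, adjusted p = 0.0252). Both calls were lost with close pairs averaged (adjusted p = 1.0 and 0.593) or correlated (0.303 and 0.0796), and when any 1 WT library was left out, among others. Without the 3 libraries richest in acinar transcripts the adjusted p was 0.0137 in DKO and 0.0591 in HKO. Of 12 other settings of the fit, Igfbp7 passed in 8 in DKO and 7 in HKO. Irs2, an adaptor of the insulin receptor, measured 14.0 ± 0.96 FPKM in DKO against 17.9 ± 2.42 in IKO (log2 −0.34, SE 0.08, adjusted p = 0.0361). It measured 14.1 ± 0.93 FPKM in HKO against 17.0 ± 0.70 in WT (log2 −0.26, SE 0.08, adjusted p = 0.190). The call of Irs2 was lost with close pairs averaged (adjusted p = 1.0) or correlated (0.808) and with only DKO and IKO in the fit (0.188). It passed in 8 of 12 other settings of the fit and in 12 of 20 fits that left out 1 library (adjusted p up to 0.108). The receptor gene Igf1r, at 46.2 ± 2.38 FPKM in DKO, 46.3 ± 5.44 in HKO, 51.0 ± 8.35 in IKO and 50.5 ± 4.46 in WT, passed in no comparison.

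Gnas, at chr2:174284320-174346744, encodes the stimulatory G protein alpha subunit that couples receptors such as Glp1r to cAMP. It was the most abundant of the 10 genes per length and the least variable, with a coefficient of variation of 4.23% over the 20 libraries. Levels were 187 ± 5.41 FPKM in DKO, 187 ± 8.27 in HKO, 181 ± 1.86 in IKO and 174 ± 6.43 in WT. The differences of DKO and HKO from WT were 0.11 (95% interval 0.02 to 0.19, limma adjusted p = 0.418) and 0.10 (0.01 to 0.19, adjusted p = 0.554). The table counts the Gnas transcripts of several promoters together, so single isoforms were not measured. Of 17 tested genes of Gs and cAMP signalling, 0 passed in any comparison.

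Grb10, at chr11:11930499-12037428 on the minus strand, encodes an adaptor that restrains insulin receptor signalling. It measured 12.3 ± 1.30 FPKM in DKO, 12.8 ± 1.78 in HKO, 12.6 ± 1.64 in IKO and 12.0 ± 0.215 in WT. The 5 WT libraries lay between 11.7 and 12.3 FPKM, and the other groups spread on both sides of them. Differences from WT were 0.04, 0.08 and 0.06 in DKO, HKO and IKO (limma adjusted p 0.970 to 1.0).

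Dlk1 and Meg3 lie 77.7 kb apart in the imprinted cluster of chromosome 12. Dlk1, at chr12:109452485-109463336, encodes a membrane protein of the Delta family, and Meg3, at chr12:109540996-109571729, a long noncoding RNA that is transcribed from the other parental allele. Dlk1 was low, at 1.66, 1.20, 1.70, 1.09 and 1.11 FPKM in DKO and 1.63, 1.79, 2.09, 1.31 and 1.51 FPKM in HKO. It measured 0.874, 0.975, 2.33, 0.801 and 0.672 FPKM in IKO, and 1.23, 1.29, 1.28, 1.26 and 1.45 FPKM in WT. In IKO 4 libraries lay below all WT libraries and replicate 3 above them. The fitted differences were 0.03, 0.26 and −0.22 in DKO, HKO and IKO against WT (limma adjusted p 0.979 to 1.0). Leaving out IKO replicate 3 gave 0.47 in DKO against IKO (adjusted p = 0.0467), against 0.25 (adjusted p = 0.702) with all libraries. Without that library 250 of 12455 genes passed in DKO against IKO, against 138 with all libraries. In IKO against WT, Dlk1 passed in 0 of the 20 fits that left out 1 library (lowest adjusted p = 0.184).

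Meg3 was abundant and varied by library set. It measured 132, 128, 77.9, 75.2 and 74.98 FPKM in DKO and 87.5, 89.2, 142, 84.9 and 82.9 FPKM in HKO. In IKO it measured 81.8, 82.9, 124, 129 and 126 FPKM, and in WT 91.3, 92.5, 67.6, 93.0 and 81.8 FPKM. The high libraries were replicates 1 and 2 in DKO, replicate 3 in HKO and replicates 3 to 5 in IKO. The IKO to WT difference was accordingly −0.16, 0.87 and 0.55 in the 3 sets, and 0.33 in all (SE 0.19, limma adjusted p = 1.0). In the same cluster Rian, another noncoding RNA, measured 90.0 ± 12.9 FPKM in DKO, 96.3 ± 19.6 in HKO, 93.4 ± 1.23 in IKO and 84.7 ± 12.8 in WT. Mirg, also of the cluster, measured 22.4 ± 6.17, 22.7 ± 4.75, 33.7 ± 15.0 and 22.5 ± 6.13 FPKM in the same order. Its IKO libraries (18.8 to 48.9 FPKM) overlapped its WT libraries (15.8 to 29.9). Rtl1 and Dio3 were under 0.04 FPKM in every library.

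Peg3, at chr7:6703892-6730462 on the minus strand, encodes a large zinc-finger protein. Replicates 1 and 2 averaged 120 FPKM in DKO, 86.4 in HKO, 105 in IKO and 130 in WT. Replicate 3 measured 126, 151, 98.4 and 68.1 FPKM in the same order, and replicates 4 and 5 averaged 67.8, 66.3, 51.9 and 68.4 FPKM. Replicates 4 and 5 were thus below replicates 1 and 2 in all 4 genotypes. Genotype means were 100.5 ± 29.9 FPKM in DKO, 91.3 ± 34.8 in HKO, 82.4 ± 28.1 in IKO and 92.8 ± 33.9 in WT. The standard error of each Peg3 difference was 0.29, the widest of the 9 tested genes, and the 95% interval in DKO against WT ran from −0.47 to 0.73 around 0.13 (limma adjusted p = 0.966).

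**Figure D3:**
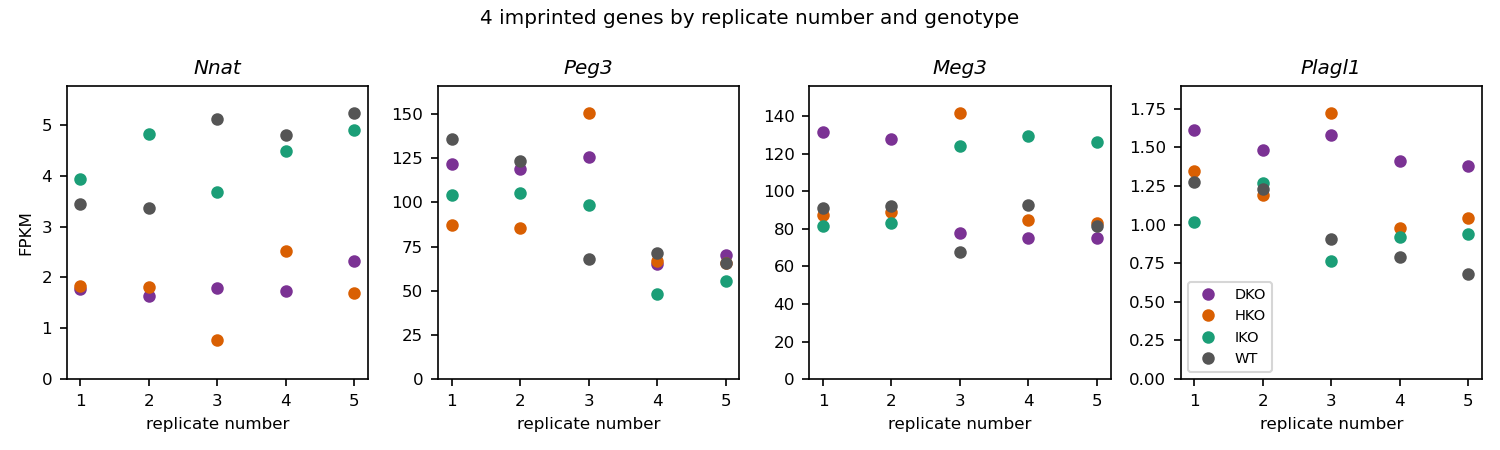
Level in FPKM (vertical axes, linear from 0) of Nnat, Peg3, Meg3 and Plagl1 against replicate number, coloured by genotype. Peg3 is lower in replicates 4 and 5 (48.2 to 71.2 FPKM) than in replicates 1 and 2 of each genotype (85.7 to 136 FPKM), Meg3 is high in different sets of each knockout, and Nnat separates the genotypes without and with Hnf4a at every number.

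Within HKO, replicate 3 held the highest value of 7 of the 10 genes (Dlk1, Meg3, Grb10, Rasgrf1, Peg3, Plagl1 and Cdkn1c) and the lowest of the 3 others (Nnat, Gnas and Igf2). Its summed beta-cell marker level, 269242 FPKM, was also the lowest of the 20 libraries. Without it, the HKO to WT differences were 0.18 for Rasgrf1, 0.16 for Plagl1, 0.02 for Meg3 and −0.29 for Igf2 (limma adjusted p 0.424 to 0.982). What sets this library apart was not tested.

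Cdkn1c, at chr7:143458339-143461059 on the minus strand, encodes the cyclin-dependent kinase inhibitor p57Kip2. Its mean of 0.229 FPKM kept it out of the fit. It measured 0.315, 0.188, 0.346, 0.180 and 0.245 FPKM in DKO and 0.261, 0.246, 0.358, 0.175 and 0.294 FPKM in HKO. In IKO it measured 0.205, 0.158, 0.199, 0.278 and 0.210 FPKM, and in WT 0.193, 0.240, 0.0890, 0.226 and 0.173 FPKM. All groups overlapped on 6 to 23 reads per library. In an exact two-sided permutation test of 5 against 5 libraries the HKO to WT difference was 0.16 (p = 0.0714, 0.357 adjusted over 5 comparisons), and the smallest p this design allows is 0.00794. Of 11 tested cyclins, kinases and other inhibitors, 0 passed in any comparison. Ccnd2 measured 111 ± 14.7 FPKM in DKO, 109 ± 24.4 in HKO, 104.5 ± 20.2 in IKO and 107 ± 14.6 in WT.

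Imprinted genes outside the set gave a wider view. Of 62 listed, 60 were in the table and 33 passed the level filter, and 0 of these 33 passed in any of the 6 comparisons. An unadjusted limma p under 0.05 was held by 0 of the 33 in IKO against WT (4.30% of all genes), 3 in HKO against WT (7.07%) and 5 in DKO against WT (8.01%). It was held by 1 in DKO against HKO (3.69%), 5 in DKO against IKO (10.2%) and 2 in the interaction (4.42%). Tssc4 was the most abundant, at 97.5 ± 9.84 FPKM in DKO, 104 ± 6.21 in HKO, 100.5 ± 13.4 in IKO and 102 ± 5.51 in WT. Transcripts of Snrpn, Snurf and Calcr were listed at 0 in every library, and H19, the noncoding neighbour of Igf2, did not exceed 0.0433 FPKM. Whether counting left out reads shared between overlapping genes was not examined, so a listed 0 does not show that a gene is silent. Mest and Peg10 averaged 0.254 and 0.119 FPKM over all libraries.

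Differences of the 33 genes ran from −0.46 (Ddc) to 0.25 (Nap1l5) in DKO against WT, from −0.58 (Ddc) to 0.25 (Nap1l5) in HKO against WT and from −0.37 (Zim1) to 0.49 (Mirg) in IKO against WT. The smallest adjusted p in the HKO and DKO comparisons with WT was 0.185 (Asb4) and 0.264 (Nap1l5). Ddc, aromatic amino acid decarboxylase, measured 54.5 ± 12.7 FPKM in DKO and 50.8 ± 13.9 in HKO, against 65.0 ± 15.8 in IKO and 74.8 ± 15.6 in WT, with overlap between the groups. Nap1l5, a nucleosome assembly protein gene, measured 17.3 ± 2.73 FPKM in DKO and 17.2 ± 0.98 in HKO, against 14.7 ± 1.07 in IKO and 14.3 ± 0.89 in WT. Its HKO libraries (lowest 16.5 FPKM) all lay above its WT libraries (highest 15.6). The HKO libraries of Asb4 (highest 1.53 FPKM) all lay below its WT libraries (lowest 1.57). Both genes overlapped between DKO and WT. Of all genes tested, 2.48% did not overlap between HKO and WT. No difference of these genes reached the −1.04 and −1.17 of Nnat, which was chosen for that difference.

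**Figure D4:**
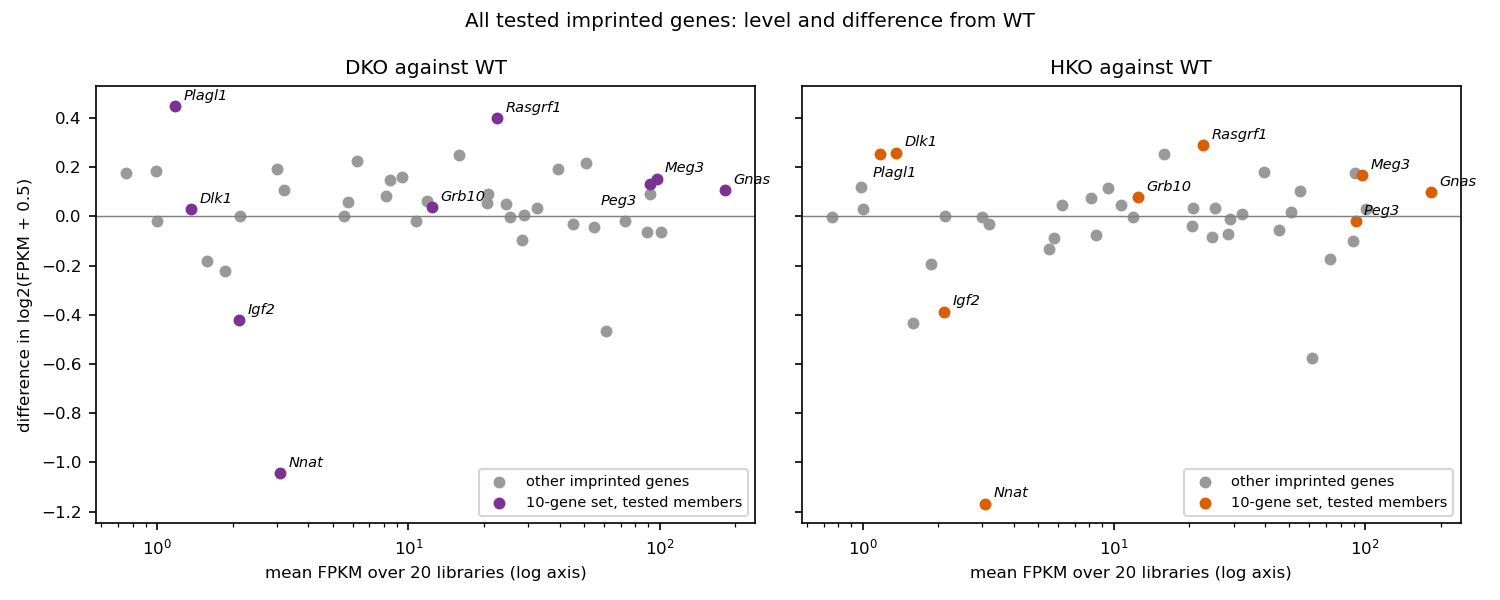
Mean level over 20 libraries in FPKM (horizontal, log axis) against the difference from WT on the log2(FPKM + 0.5) scale (vertical) for DKO and HKO, for 33 other imprinted genes (grey) and the 9 tested genes of the set (coloured). Nnat lies at −1.04 and −1.17, and the other imprinted genes lie between −0.58 and 0.25.

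Genes that maintain imprints were measured as well. Of 15 listed, among them the methyltransferase Dnmt1, the zinc-finger protein Zfp57 and its partner Trim28, 10 passed the level filter and 0 passed the test in any comparison. Trim28 measured 49.2 ± 4.22 FPKM in DKO, 49.7 ± 3.10 in HKO, 52.7 ± 4.41 in IKO and 49.7 ± 3.83 in WT. The insulator protein gene Ctcf measured 17.4 ± 1.59, 16.4 ± 2.11, 17.5 ± 1.20 and 17.2 ± 1.83 FPKM in the same order. Of the 7 tested genes of Notch and Delta signalling and the 6 of the PLAG family and Peg3 partners, 0 passed in any comparison.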

How the data were processed

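FPKM values (fragments per kilobase of transcript and M mapped reads) were computed by the authors and deposited for all 20 libraries in a single table, which holds 0 columns from elsewhere. Per the submitters' processing notes the mouse build was mm10, and the tools named include DESeq2 1.14.1, Subread 1.5.2 with featureCounts, and STAR 2.5.2b. The strand setting of the counting is not given in the sources used here, so reads of Nnat and Blcap, which overlap on opposite strands, may not be separated, although the labels' protocols call the libraries directional. Of 27179 entries, 847 named NA (0.0810 to 0.204% of reads) and 27 named as dates (0.160 to 0.186%) were left out.

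Whole reads were recovered from the deposited FPKM steps in 100% of 21006 entries above 0 (tolerance 0.02 reads) and gave library totals. The 12455 genes averaging 0.5 FPKM or more were tested on log2(FPKM + 0.5), which understates changes of low genes, by limma 3.58.1 (R 4.3.3) with a mean-variance trend. Each of 6 comparisons used the spread of all 20 libraries, with Benjamini-Hochberg adjusted p under 0.05 as threshold. Cdkn1c was tested by exact permutation. Alternatives were other pseudocounts, filters and scalings, a replicate block, close pairs averaged or correlated, voom on the recovered reads, only the groups compared, and each library left out.

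All 10 genes were named. Of the listed pathway genes, those that passed and the 2 most abundant of a list could be named, and for Nnat the 5 genes with the highest r. Other imprinted genes at the ends of a range, those listed at or near 0 and Kcnq1 were chosen after their values were seen. The members and lists were chosen with earlier results of these data known. Coordinates and promoter windows are RefSeq, GRCm38.p6, and overlaps between genes GENCODE vM21.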

Additional observations from a re-analysis of the deposited data

Results flagged for a closer look

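Of 40 groups of 5 libraries (10 genes, 4 genotypes), 6 held 1 library whose gap to its nearest neighbour was more than 0.71 of the group's range. Chance marks about 1 in 20 groups of independent values, and the close pairs (replicates 1 and 2, 4 and 5) can make such gaps more frequent for replicate 3, to which 4 of the 6 belong. The high library of Meg3 (142 FPKM, next 89.2), Peg3 (151 FPKM, next 87.1) and Grb10 (15.8 FPKM, next 12.4) was HKO replicate 3 each time. Dlk1 reached 2.33 FPKM in IKO replicate 3 (next 0.975) and 1.45 FPKM in WT replicate 5 (next 1.29). Nnat reached 2.32 FPKM in DKO replicate 5, against 1.78 FPKM in the next DKO library. No cause was tested.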

How the results depend on the processing

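Nnat, chosen for its low HKO level, kept its direction in all 3 comparisons between genotypes without and with Hnf4a under every alternative. Its groups did not overlap there, so leaving out 1 library could not reverse the sign. The values are a description and no support for the difference. Leaving out single libraries gave −1.29 to −0.98 in HKO against WT and −1.12 to −0.98 in DKO against WT, and the other settings −1.39 to −0.9996 and −1.24 to −0.91. Of the single-gene results outside the left-out libraries, 646 kept direction and side of the threshold, 23 reversed, 23 weakened, 3 strengthened and 2 moved. Genes of the set that passed besides Nnat numbered 1 in DKO against WT. They numbered 0 with no filter, with close pairs averaged or correlated and without the 3 libraries richest in acinar transcripts (a choice made after seeing the data), and 2 with equal medians, Plagl1 being added. In DKO against IKO 1 passed with equal medians. Left-out libraries gave 0 to 1 in both comparisons.

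Same-numbered libraries of different genotypes deviated together in part: 24 of 30 pairs had deviations correlated above 0.1 (median 0.303, range −0.386 to 0.499), and 5 of the 6 others were of replicate 3. No label ties the numbers to an animal or a day, so the main fits did not take them as pairs. Differences by library set are a description. With the replicate block 2 genes of the set passed in DKO against WT (Plagl1 adjusted p = 0.0484), and all genes passing were 193 in HKO against WT, 263 in DKO against WT, 291 in DKO against IKO and 1 in IKO against WT.

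Of all genes, IKO against WT had 1 passing with no filter, a mean of at least 1 FPKM, close pairs correlated and voom, 6 with quantile normalization and 0 with close pairs averaged. Averaging close pairs left 5 in HKO against WT, 17 in DKO against WT, 15 in DKO against IKO and 0 in DKO against HKO, and correlating them 26, 42 and 26 in the first 3 of these. DKO against HKO had 3 with no filter, and DKO against IKO 88 with only those groups. The interaction had 0 with equal medians, pairs averaged or correlated, voom and without the 3 acinar-rich libraries, and could not be fitted on fewer groups. Left-out libraries gave 1 to 29 in IKO against WT, 85 to 250 in DKO against IKO and 0 to 2 in the interaction.

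Some differences reversed. In IKO against WT, Nnat gave −0.012 with equal medians, −0.015 with quantile normalization, −0.065 with pairs averaged and −0.053 correlated, and Plagl1 −0.0043, −0.0095, −0.014 and −0.0092. In HKO against WT, Peg3 gave 0.17 averaged, 0.14 correlated and 0.24 without the acinar-rich libraries. In DKO against WT, Dlk1 gave −0.041 with quantile normalization and −0.037 without those libraries. In DKO against HKO, Meg3 gave 0.026 with quantile normalization, Gnas −0.027 with equal medians and −0.0025 without those libraries, Peg3 −0.20 and Igf2 0.042 without them. In DKO against IKO, Grb10 gave 0.021 averaged and 0.014 correlated. In the interaction, Dlk1 gave 0.029 with a pseudocount of 0.1 and 0.053 with voom, and Peg3 −0.029 without those libraries. Left-out libraries reversed Nnat (−0.072 to 0.070) and Plagl1 (−0.062 to 0.085) in IKO against WT, Grb10 (−0.00067 to 0.12) and Peg3 (−0.22 to 0.13) in HKO against WT, and Dlk1 (−0.037 to 0.080) and Grb10 (−0.0081 to 0.073) in DKO against WT. They did so in DKO against HKO for Nnat (−0.064 to 0.25), Meg3 (−0.14 to 0.13), Gnas (−0.015 to 0.023), Grb10 (−0.085 to 0.037), Igf2 (−0.13 to 0.062) and Cdkn1c (−0.069 to 0.018), in DKO against IKO for Grb10 (−0.10 to 0.018), and in the interaction for Nnat (−0.071 to 0.24) and Dlk1 (−0.11 to 0.21). The cause was not tested.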

Other observations

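Kcnq1, an imprinted potassium channel gene outside the set that lay below the level filter, was picked out after its values were seen. It measured 0.588 FPKM in DKO (0.468 to 0.757) and 0.449 in HKO (0.256 to 0.687), against 0.247 in IKO (0.146 to 0.371) and 0.239 in WT (0.133 to 0.395). All DKO libraries lay above all IKO and WT libraries. Groups without overlap were counted only over the 12455 genes above the filter, where they made up 3.37% in DKO against WT and 2.77% in DKO against IKO. In a limma fit with no filter the DKO to WT difference was 0.56 (adjusted p = 0.0577) and the DKO to IKO difference 0.54 (adjusted p = 0.0761). That fit called 172 of 20470 genes in DKO against WT and 142 in DKO against IKO.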
